A study of Saccharomyces cerevisiae with 6 samples.

Results

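DNA replication and S phase genes were followed in Saccharomyces cerevisiae, budding yeast, with and without extra eEF1A, the translation elongation factor that carries aminoacyl-tRNA to the ribosome. The 53 genes encode the proteins that mark and open replication origins, copy DNA at the fork, supply its nucleotides and tie the new sister chromatids together. They were chosen by name for these functions, with earlier results of these data known, and they are 53 of the 5685 yeast genes on the chip. Each is read by 1 probe set. The symbol in the chip's annotation matched 51 of them, whereas POL3 and POL31 stand there under older names (CDC2 and HYS2) and were matched by locus tag.

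RNA from log phase cells was hybridised to 6 Affymetrix Yeast 2.0 arrays. The control group has 4 arrays (control replicates 1 to 4) of a strain described as wild type with an empty multi-copy (2µ) LEU2 plasmid, its cell size labelled normal. The eEF1A group has 2 arrays (eEF1A replicates 2 and 3) of cells labelled enlarged, whose plasmid carries TEF1, a gene of eEF1A. In the methods its promoter is that of GPD. All cultures were grown at 30 °C without leucine, from an optical density of 0.1 to 0.7. The methods speak of triplicate cultures while the labels give 4 and 2 arrays, and where arrays share a culture the p-values measure only technical spread.

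Replication in yeast starts at defined origins, which the origin recognition complex (ORC) marks and onto which Cdc6 loads the Mcm helicase in G1. At the start of S phase, cyclin-dependent kinase and the Cdc7-Dbf4 kinase switch the helicase on by adding Cdc45 and the GINS complex, and polymerases, the sliding clamp and ligase then follow the fork. Many of these genes are transcribed together in late G1 under the factor MBF, whereas most genes of ribonucleotide reductase, which makes deoxyribonucleotides (dNTPs), are also held down by the repressor Crt1 (gene RFX1) and released by the DNA damage checkpoint.

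Several facts of the whole series bear on what follows. The shared TEF1/TEF2 probe set ranged from 14.48 to 14.51 on the control arrays and read 14.51 and 14.49 on eEF1A replicates 2 and 3, near the top of the scale (adjusted p = 0.955), so it does not check which arrays carry extra TEF1. The groups also differ in mating-type genes: 7 of 7 a-cell genes fell (median log2 difference -4.79) and 4 of 4 α-cell genes rose (median 5.89). Mean values of MFA2, an a-cell gene, were 12.81 on the control arrays and 5.73 on the eEF1A arrays. Those of MF(ALPHA)1, an α-cell gene, were 4.03 and 12.46. By these markers the control arrays read as a cells and the eEF1A arrays as α cells, so the groups differ in mating type as well as in plasmid. Overexpressed eEF1A and this difference in mating type cannot be told apart in any comparison below. The median yeast value was 9.003 to 9.05 on the control arrays, 9.12 on eEF1A replicate 2 and 9.03 on eEF1A replicate 3, and a hybridisation spike (CreX3) was at 13.47 to 13.55 on the control arrays but at 11.81 on eEF1A replicate 2 and 13.63 on eEF1A replicate 3. All values are log2 expression values normalised by RMA, and a difference is eEF1A minus control on that scale.

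Replication genes were more often lower than higher in eEF1A cells. With limma, at a Benjamini-Hochberg adjusted p under 0.05 over all genes, 23 of the 53 fell (43.4%) and 4 rose (7.55%), against 15.6% of all genes that fell and 27.7% that rose. The genes that fell span every step from origin firing to cohesion (SLD2, PSF1 and CDC45 at origins, POL30 and CDC9 at the fork, RNR1 and CDC21 in nucleotide supply, MCD1 and SMC3 in cohesin), whereas the 4 that rose were DPB3, RNR2, RNR3 and RNR4. The median difference of the 53 genes was -0.14 (range -0.61 to 0.68), against 0.04 over all genes, and 40 of the 53 (75.5%) were below 0, against 42.2% of all genes. Both eEF1A arrays were below every control array for 26 of the 53 genes, against 21.6% of all genes, and above every control array for 7, against 35.9%. At the threshold the study's methods name, a B-statistic (limma's log odds of change) above 1.5, SLD2, PSF1 and RNR1 were lower and 0 were higher, against 2.53% and 6.12% of all genes. At an unadjusted p under 0.05, 25 were lower and 8 higher, against 19.0% and 32.7% of all genes.

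**Figure D1:**
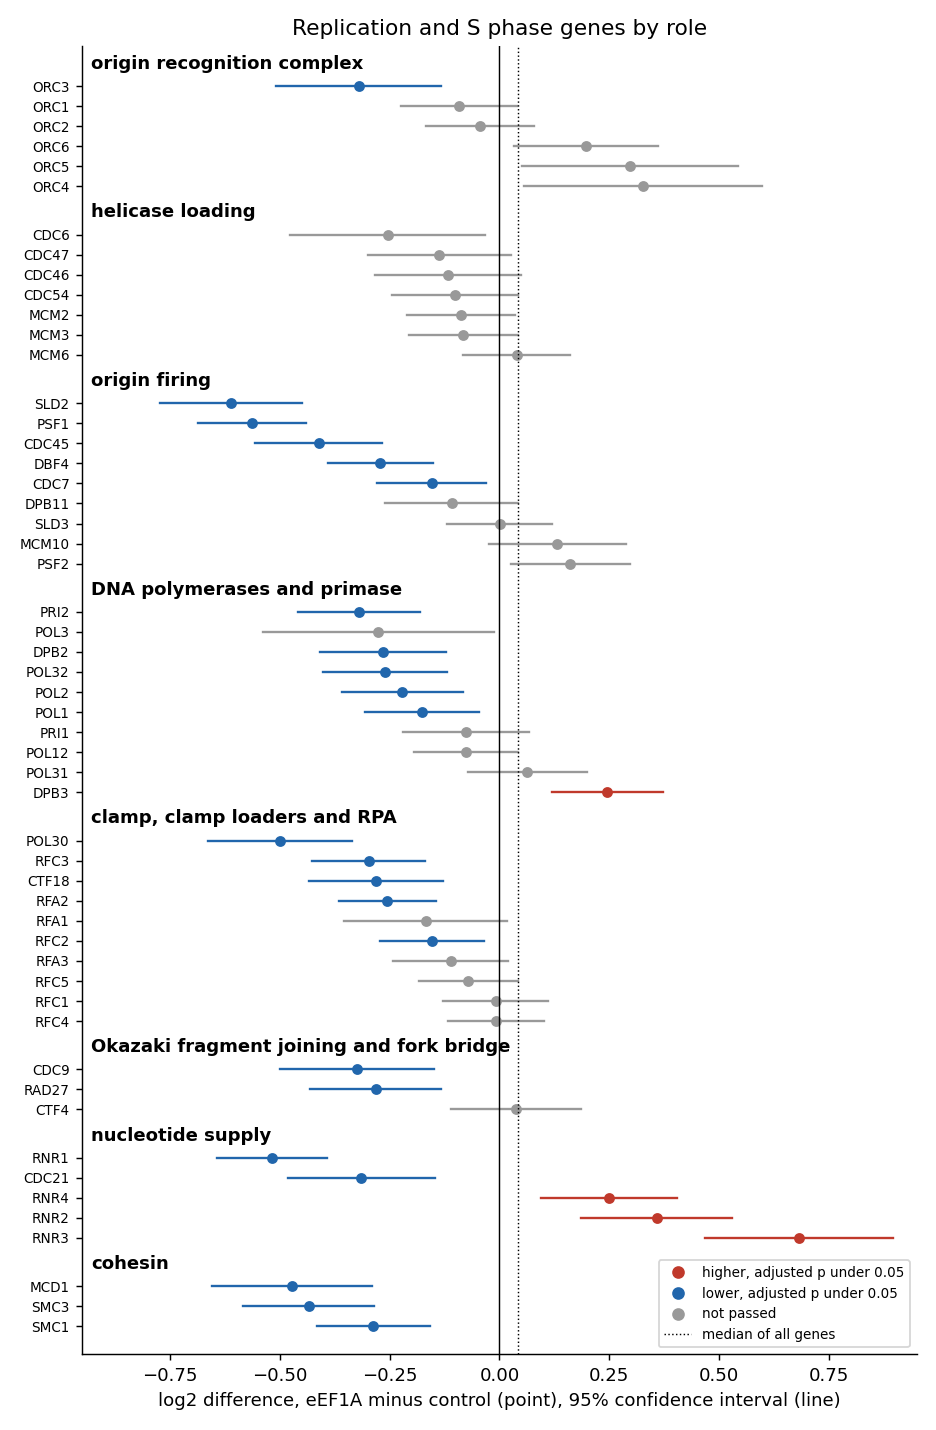
Log2 difference between eEF1A and control arrays (x axis, points) with its 95% confidence interval (lines) for each of the 53 genes, grouped by role, with the median of all genes (0.04) as a dotted line. Genes that fell reach down to -0.61 (SLD2) and those that rose up to 0.68 (RNR3). Under a quantile normalisation of the yeast probe sets alone DPB3 no longer passed while 5 of the 7 helicase loading genes fell, against 26.2% of all genes.

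All 53 probe sets had means above 5.18, the level under which 95% of the chip's Schizosaccharomyces pombe probe sets lie. Between the eEF1A arrays, replicate 3 read lower than replicate 2 for 45 of the 53 genes (84.9%) and for 82.4% of all genes. Relative to the control mean, the median of the 53 genes was -0.04 on eEF1A replicate 2 and -0.19 on replicate 3, where all genes had medians of 0.09 and -0.01. In whole cultures, fewer cells in S phase and less of an RNA in each cell cannot be told apart.

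Of the 6 subunits of ORC, 1 fell, ORC3 (16.7%, near the 15.6% of all genes), and ORC4, ORC5 and ORC6 had differences above 0 that did not pass. ORC3 read 8.69, 8.65, 8.83 and 8.63 on control replicates 1 to 4 and 8.49 and 8.27 on eEF1A replicates 2 and 3. Both eEF1A arrays were below all control arrays, with a log2 difference of -0.32 (standard error 0.08, adjusted p = 0.0143). ORC4, whose difference was the furthest from 0 in the complex, read 8.18, 7.94, 8.31 and 8.03 on the control arrays against 8.60 and 8.28 on the eEF1A arrays. Its groups overlapped, since control replicate 3 was above eEF1A replicate 3, and a log2 difference of 0.33 (standard error 0.12, adjusted p = 0.0543) did not pass. ORC5 (0.30, adjusted p = 0.0533) and ORC6 (0.20, adjusted p = 0.0541) were each higher on both eEF1A arrays than on any control array, by more on replicate 2 than on replicate 3. ORC1 (-0.09) and ORC2 (-0.04) lay closer to 0. These calls turn on single arrays and on the model. Without eEF1A replicate 3 the differences were -0.21 (ORC3), 0.48 (ORC4), 0.52 (ORC5) and 0.32 (ORC6), and without control replicate 3 ORC4 rose (adjusted p = 0.0309). Under limma's trend variance model ORC4 and ORC5 rose with every array kept (adjusted p = 0.0344 and 0.032). So did ORC5 and ORC6 with only probe sets above the S. pombe background (0.0493 and 0.0499).

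With limma, 0 of the 7 helicase loading genes passed the test (1, CDC6, had an unadjusted p under 0.05), although 6 had differences below 0 (median -0.10). They are CDC6, whose ATPase puts the helicase on DNA, and the helicase subunits MCM2, MCM3, CDC54 (Mcm4), CDC46 (Mcm5), MCM6 and CDC47 (Mcm7). CDC6 read 8.12, 8.004, 8.14 and 8.08 on control replicates 1 to 4, 8.01 on eEF1A replicate 2 and 7.65 on replicate 3. Replicate 2 lay within the control range and replicate 3 well below it, with a log2 difference of -0.25 (standard error 0.10, adjusted p = 0.0636). The Mcm subunits ran from -0.14 (CDC47, adjusted p = 0.154) to 0.04 (MCM6, 0.586). Of the roles, this one gained the most calls with another scaling: after quantile normalisation over the yeast probe sets alone, and also after centring each array on its yeast median, CDC6, MCM2, MCM3, CDC46 and CDC47 fell. Calls were gained across the chip too: 26.2% and 25.6% of all genes fell under these scalings, against 15.6% as deposited. Without eEF1A replicate 2, CDC6 (-0.44, adjusted p = 0.00217), CDC46 (0.0253) and CDC47 (0.0254) fell, and without eEF1A replicate 3 CDC54 did (0.0222).

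Origin firing factors fell in 5 of 9 cases (55.6%, against 15.6% of all genes), and this role held the largest fall of all 53 genes. SLD2, which binds Dpb11 once cyclin-dependent kinase has phosphorylated it, lies on chromosome 11 (bases 234068 to 235429, plus strand). Positions come from the chip's annotation, which uses an early SGD build, with each start shifted by 1 base to the usual counting. SLD2 read 7.93, 7.89, 7.97 and 7.97 on the control arrays against 7.44 and 7.21 on the eEF1A arrays. No eEF1A array came near the control range, and the RNA was 1.53-fold lower (log2 difference -0.61, standard error 0.07, adjusted p = 0.00035). PSF1, a GINS subunit on chromosome 4 (bases 473153 to 473779, plus strand), went from 9.07, 9.03, 9.03 and 9.13 on the control arrays to 8.53 and 8.48 on the eEF1A arrays. The 4 control arrays spread by 0.05 (SD) and the eEF1A arrays lay far outside them, with a log2 difference of -0.56 (standard error 0.05, adjusted p = 0.000141). CDC45, the helicase partner that GINS joins, read 7.94, 7.93, 7.95 and 8.03 on the control arrays against 7.63 and 7.47 on the eEF1A arrays, again with the groups apart (log2 difference -0.41, standard error 0.06, adjusted p = 0.00139).

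DBF4 and CDC7, regulator and catalytic subunit of the kinase that phosphorylates the Mcm helicase, fell by less. DBF4 had a difference of -0.27 (adjusted p = 0.00395) and CDC7 of -0.15 (0.048). The CDC7 call held without eEF1A replicate 2 but was lost on leaving out each of the other arrays (adjusted p = 0.0914, 0.0681, 0.0853 and 0.104 without control replicates 1 to 4, and 0.152 without eEF1A replicate 3). DPB11 (-0.11), SLD3 (0.00021) and MCM10 (0.13) did not pass, although DPB11 fell under both other scalings. Within GINS, PSF2 did not fall with PSF1: it read 9.06, 9.05, 9.10 and 9.17 on the control arrays against 9.20 and 9.31 on the eEF1A arrays, just above all controls, at a log2 difference of 0.16 (standard error 0.06, adjusted p = 0.0554). Without eEF1A replicate 2 it rose (0.22, adjusted p = 0.0318). Of the GINS subunits outside the 53 genes, SLD5 fell from 8.98, 8.995, 9.04 and 8.96 on the control arrays to 8.61 and 8.56 on the eEF1A arrays (log2 difference -0.40, standard error 0.05, adjusted p = 0.000472) and PSF3 had a difference of 0.05 (adjusted p = 0.419). The log2 gap between PSF1 and PSF2 shifted by -0.72 between groups, a shift that follows from their values above. The exact permutation test used here doubles the smaller tail over the 15 arrangements of the 6 arrays, so its 2-sided p goes no lower than 0.133. The shifts of the 5 pairs of subunits compared are therefore given as descriptions.

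**Figure D2:**
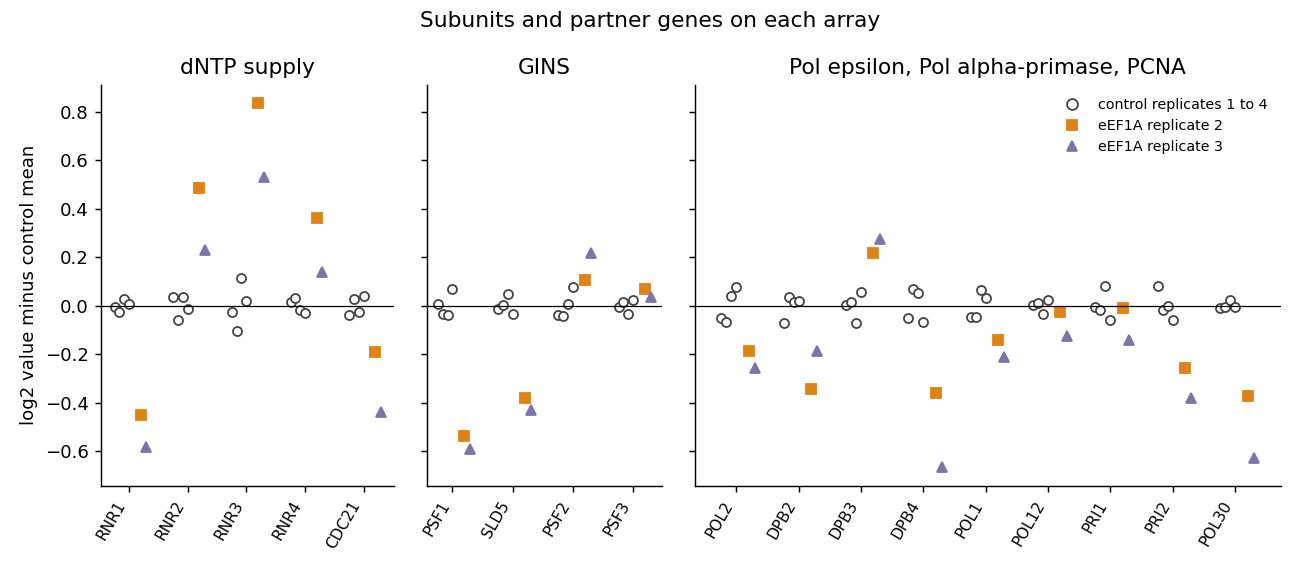
Log2 value minus the control mean (y axis) on each array for ribonucleotide reductase and CDC21, the GINS complex, and polymerase ε, polymerase α-primase and PCNA. PSF1 and SLD5 (differences -0.56 and -0.40) lie below the controls on both eEF1A arrays while PSF2 and PSF3 lie above 0, and RNR1 lies opposite to RNR2, RNR3 and RNR4.

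Among the DNA polymerases and primase, 5 of 10 genes fell and 1 rose, against 15.6% of all genes that fell and 27.7% that rose. PRI2, the large primase subunit, changed most: it read 9.29, 9.20, 9.21 and 9.16 on the control arrays against 8.96 and 8.83 on the eEF1A arrays. All control arrays were above both eEF1A arrays, with a log2 difference of -0.32 (standard error 0.06, adjusted p = 0.00386). Its partners in polymerase α-primase, which starts each new strand, were POL1 (-0.18, adjusted p = 0.035), which fell, and POL12 (-0.08, 0.272) and PRI1 (-0.08, 0.358), which did not pass.

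Polymerase ε, the leading strand enzyme, was split. Its catalytic subunit POL2 (-0.22, adjusted p = 0.019) and the essential subunit DPB2 (-0.27, 0.00985) fell, as did DPB4 outside the 53 genes (-0.51, 0.00238), whereas DPB3, which pairs with Dpb4 in a histone-fold dimer, rose from 8.52, 8.53, 8.45 and 8.57 on the control arrays to 8.73 and 8.79 on the eEF1A arrays (log2 difference 0.25, standard error 0.05, adjusted p = 0.00777). The gap between POL2 and DPB3 shifted by -0.47. DPB3 was at an adjusted p of 0.0543 after quantile normalisation over the yeast probe sets. In polymerase δ, the lagging strand enzyme, POL32 fell (-0.26, 0.0103), POL31 was at 0.06 (0.419), and the catalytic POL3 was within the control range on eEF1A replicate 2 (8.69) and below it on replicate 3 (8.22), at -0.28 (0.0836).

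Calls among the polymerases also rest on single arrays. The call of POL1 was lost when control replicate 1, 3 or 4 was left out, and likewise eEF1A replicate 3 (adjusted p = 0.0568, 0.0681, 0.094 and 0.121), that of POL2 without control replicate 4 and without eEF1A replicate 3 (0.0544 and 0.0722), and POL3 fell without eEF1A replicate 2 (0.000773). Under both other scalings POL12, PRI1 and POL3 fell as well.

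Of the clamp, its loaders and the single-strand binding protein RPA, all 10 genes had differences below 0. The test called 5 of them lower (50.0%, against 15.6% of all genes). POL30 encodes PCNA, the ring that holds polymerases on DNA, and lies on chromosome 2 (bases 424946 to 425722, minus strand). It read 11.85, 11.85, 11.88 and 11.85 on the control arrays, a spread of 0.02 (SD, n = 4), and 11.49 and 11.23 on the eEF1A arrays. Both eEF1A arrays were far below the controls, replicate 3 more so, and the RNA was 1.41-fold lower (log2 difference -0.50, standard error 0.07, adjusted p = 0.00104). The clamp loader genes RFC3 (-0.30, adjusted p = 0.00363) and RFC2 (-0.15, 0.0411) fell, while RFC1 (-0.01), RFC4 (-0.01) and RFC5 (-0.07) did not pass. CTF18, which takes the place of Rfc1 in a loader linked to cohesion, fell (-0.28, 0.01). In RPA, RFA2 fell (-0.26, 0.0038) and RFA1 (-0.17, 0.129) and RFA3 (-0.11, 0.152) did not pass. The RFC2 call was lost on leaving out any of the 6 arrays (adjusted p 0.0585 to 0.113), RFA1 fell without eEF1A replicate 2 (0.00386), and RFA1 and RFA3 fell under both other scalings.

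POL30 and RFC5 are convergent neighbours with 160 bases between the aligned genes on chromosome 2, and they differed in size of change (-0.50 against -0.07). Likewise POL2 ends 219 bases before ORC5 on chromosome 14, and POL2 fell while ORC5 was at 0.30. SMC3 and PSF2 lie 2371 bases apart on chromosome 10, and SMC3 fell while PSF2 was at 0.16.

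Okazaki fragments, the short pieces of the lagging strand, are trimmed by the flap nuclease Rad27 and sealed by the ligase Cdc9, and both genes fell. They are 2 of the 3 genes in this role (66.7%, against 15.6% of all genes). CDC9 read 8.72, 8.78, 8.81 and 8.77 on the control arrays against 8.58 and 8.31 on the eEF1A arrays. Replicate 3 was the lower of the eEF1A arrays and neither reached the controls (log2 difference -0.32, standard error 0.08, adjusted p = 0.0101). RAD27 had a difference of -0.28 (adjusted p = 0.00892). CTF4, which bridges the helicase and polymerase α, was at 0.04 (0.664), with its groups overlapping.

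Nucleotide supply genes were split, with 3 of 5 higher and 2 lower, against 27.7% of all genes that rose and 15.6% that fell. Ribonucleotide reductase pairs a large subunit (Rnr1, or its damage-inducible paralog Rnr3) with a small subunit made of Rnr2 and Rnr4. RNR1, on chromosome 5 (bases 298948 to 301614, plus strand), read 11.09, 11.07, 11.12 and 11.10 on control replicates 1 to 4 and 10.64 and 10.51 on eEF1A replicates 2 and 3. The groups were well apart and the RNA was 1.43-fold lower (log2 difference -0.52, standard error 0.05, adjusted p = 0.000229). Its paralog RNR3, on chromosome 9 (bases 238096 to 240705, minus strand), read 6.24, 6.17, 6.38 and 6.29 on the control arrays against 7.11 and 6.80 on the eEF1A arrays. Here both eEF1A arrays were above all controls, replicate 2 by more, and the RNA was 1.6-fold higher (log2 difference 0.68, standard error 0.09, adjusted p = 0.000796), the largest rise of the 53 genes.

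RNR2 and RNR4, the small subunit genes, rose with RNR3. RNR2 read 11.66, 11.56, 11.66 and 11.60 on the control arrays against 12.10 and 11.85 on the eEF1A arrays, with a log2 difference of 0.36 (standard error 0.07, adjusted p = 0.00611). RNR4 read 12.31, 12.33, 12.28 and 12.27 on the control arrays against 12.66 and 12.44 on the eEF1A arrays, with a log2 difference of 0.25 (standard error 0.07, adjusted p = 0.0184). For both genes eEF1A replicate 2 was the higher array, and without it RNR4 did not pass (0.14, adjusted p = 0.0791) while the calls of RNR1, RNR2 and RNR3 held with any array left out. CDC21, thymidylate synthase, fell with RNR1: it read 8.96, 9.02, 8.97 and 9.04 on the control arrays against 8.81 and 8.56 on the eEF1A arrays, with no overlap (log2 difference -0.32, standard error 0.07, adjusted p = 0.0094). The gap of RNR1 to its partners shifted by -0.88 against RNR2, -1.20 against RNR3 and -0.77 against RNR4, as descriptions of the values above.

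**Figure D3:**
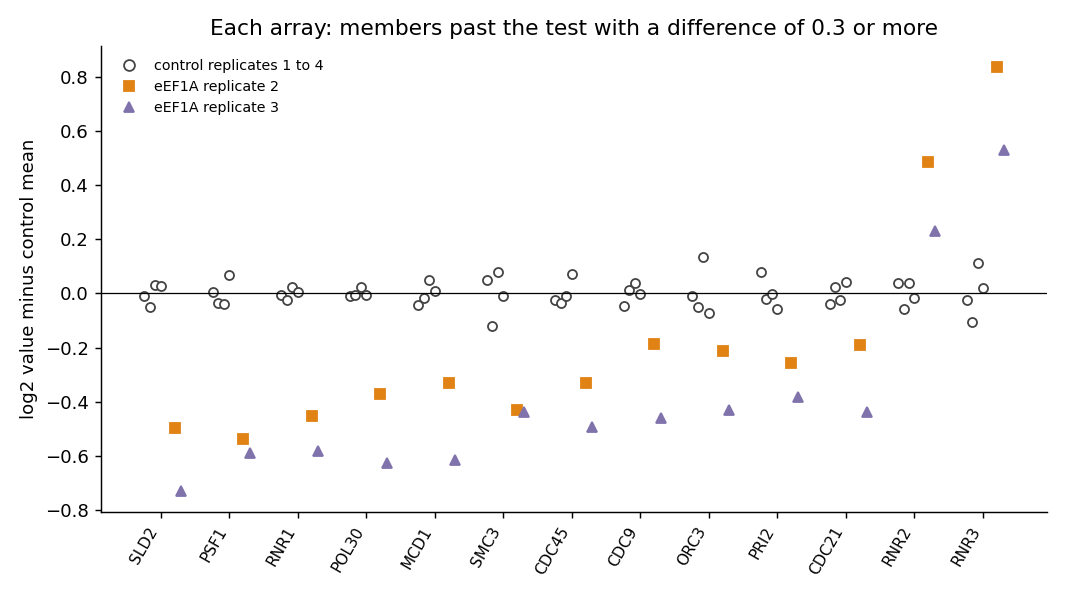
Log2 value minus the control mean (y axis) on each array for the 13 genes that passed with a difference of at least 0.3 in size, in order of difference. Control arrays stay near 0, eEF1A replicate 3 is the lower of the eEF1A arrays throughout, and RNR2 and RNR3 are the only genes above 0.

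Cohesin was the role with the lowest median (-0.43), and all 3 of its genes fell, against 15.6% of all genes. MCD1, the kleisin that closes the ring and is made anew each S phase, lies on chromosome 4 (bases 444679 to 446379, plus strand). It read 9.04, 9.07, 9.14 and 9.09 on the control arrays against 8.75 and 8.47 on the eEF1A arrays, and its groups were apart (log2 difference -0.47, standard error 0.08, adjusted p = 0.00218). SMC3, an arm of the ring, read 9.12, 8.95, 9.15 and 9.06 on the control arrays against 8.64 and 8.63 on the eEF1A arrays. The eEF1A arrays nearly coincided, while the controls spread by 0.09 (SD, n = 4), and the difference was -0.43 (standard error 0.06, adjusted p = 0.00128). SMC1, the other arm, fell by less (-0.29, 0.00443). These calls held with any array left out.

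Genes that work beside the 53 were counted from lists written for this purpose. Each count from all arrays as deposited is to be set against the 15.6% of all genes that fell and the 27.7% that rose. Of 19 other fork and origin factors, 6 fell and 2 rose (median -0.11). DPB4, RNH201, the catalytic subunit of RNase H2 (-0.51, adjusted p = 0.000537), SLD5 and TOP1, the topoisomerase that relaxes DNA ahead of the fork (-0.37, 0.000476), fell most, and MRC1 and TOF1, which pace the fork, fell by less (-0.25 and -0.19), with calls that were lost without control replicates 1, 3 or 4, or without eEF1A replicate 3, and for MRC1 also without control replicate 2. RNH203, another RNase H2 subunit (0.32, 0.00286), and the helicase gene RRM3 (0.21, 0.0374) rose. TOP2 (-0.11) and TAH11, the yeast Cdt1 (-0.08), did not pass. The RRM3 call was lost under both other scalings and without any control array, and its difference was 0.11 without eEF1A replicate 2. The count that fell was 13 and 11 under the other scalings, against 26.2% and 25.6% of all genes. Without eEF1A replicate 2 the median of these factors was -0.21, against -0.0075 over all genes. In cohesin loading and establishment, 4 of 6 fell, led by ECO1, the acetyltransferase that locks cohesin on DNA (-0.47, 0.000472), and the loader SCC2 (-0.29, 0.00988), with PDS5 (-0.18) and IRR1 (-0.14) after them, whereas SCC4 (-0.16) and RAD61 (0.14) did not pass. IRR1 was lost on leaving out any array (adjusted p 0.0582 to 0.121) and PDS5 without control replicate 4 (0.0514). Of 8 chromatin assembly genes, 4 fell: the histone chaperone ASF1 (-0.24), the CAF-1 subunits RLF2 (-0.23) and CAC2 (-0.19), and the FACT subunit POB3 (-0.20). SPT16 (-0.06) and RTT106 (-0.12) did not pass, and the count that fell was 1 without eEF1A replicate 3 and 7 without replicate 2. RLF2 was also lost without any control array, and CAC2 without control replicates 1, 3 or 4.

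Genes that control ribonucleotide reductase and the S phase checkpoint passed the test in shares near those of all genes: 4 of 13 rose (30.8%, against 27.7%) and 2 fell (15.4%, against 15.6%). WTM1, which anchors the small subunit in the nucleus, read 11.52, 11.43, 11.48 and 11.43 on the control arrays against 12.39 and 12.15 on the eEF1A arrays. It rose (log2 difference 0.81, standard error 0.07, adjusted p = 0.000111), and so did its relative WTM2 (0.37, adjusted p = 0.00313). RFX1, which encodes the repressor Crt1 of the RNR genes, read 7.17, 7.29, 7.10 and 7.32 on the control arrays against 7.87 and 7.64 on the eEF1A arrays and rose too (log2 difference 0.53, standard error 0.09, adjusted p = 0.00189). HUG1, a small damage-induced inhibitor of the reductase, rose from 6.38, 6.42, 6.43 and 6.39 on the control arrays to 6.87 and 6.91 on the eEF1A arrays (log2 difference 0.49, standard error 0.05, adjusted p = 0.00017). SML1, the inhibitor of Rnr1, fell (-0.21, 0.0132), and so did RAD24, a checkpoint clamp loader (-0.32, 0.0428), whose eEF1A arrays differed widely (7.78 and 7.35) and whose call was lost without any control array or without eEF1A replicate 3.

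Of the checkpoint kinase genes, MEC1 was at -0.01 (adjusted p = 0.943), RAD53 at -0.33 (0.105) and DUN1 at -0.18 (0.14), and none passed. RAD53 read 6.76, 6.84, 7.01 and 6.98 on the control arrays, 6.86 on eEF1A replicate 2 and 6.27 on replicate 3, and without replicate 2 RAD53 and DUN1 fell (0.00272 and 0.0357), as they did under both other scalings. CRT10 (0.17) and DIF1 (-0.08) did not pass either, although CRT10 rose without control replicate 3 (0.0459). Of 6 other dNTP enzymes, only DFR1, dihydrofolate reductase, rose (0.17, 0.0325; 16.7% against 27.7% of all genes), and GUK1 (0.04) and DUT1 (0.02) lay near 0. The DFR1 call was lost without control replicates 1, 2 or 4, or without eEF1A replicate 2, and YNK1 rose without eEF1A replicate 3.

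**Figure D4:**
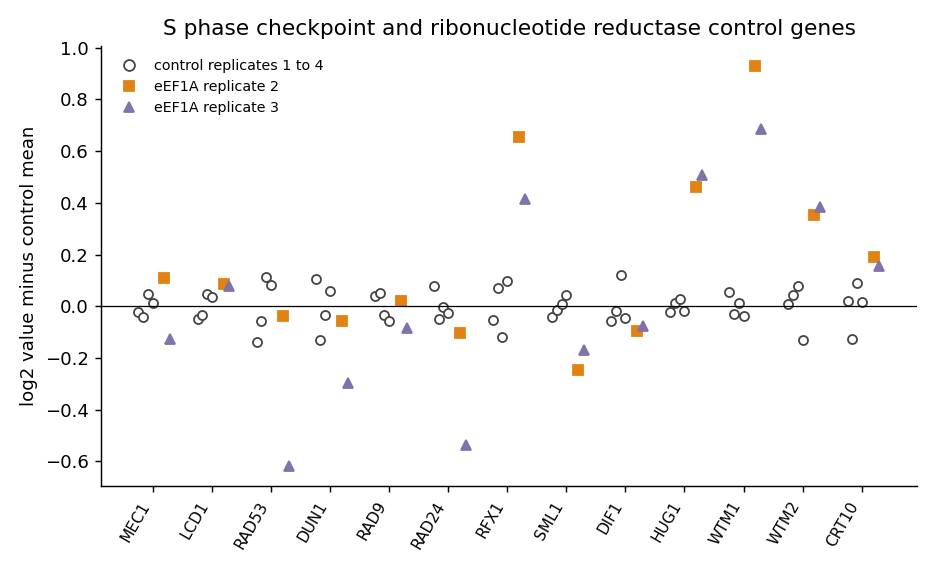
Log2 value minus the control mean (y axis) on each array for 13 genes of the S phase checkpoint and of ribonucleotide reductase control. WTM1 (difference 0.81), RFX1, HUG1 and WTM2 lie above the controls on both eEF1A arrays, and RAD53 and RAD24 are far lower on eEF1A replicate 3 than on replicate 2.

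Other genes timed to the cell cycle were set beside the 53. Their counts are to be read against the 15.6% of all genes that fell and the 27.7% that rose. Of 10 G1 to S target genes outside replication, 7 fell (median -0.33), the largest falls being PCL1, a cyclin of the Pho85 kinase (-0.79, adjusted p = 0.00074), the repressor gene YOX1 (-0.65, 0.000691), the bud neck kinase gene GIN4 (-0.54, 0.000254) and the S phase cyclin gene CLB5 (-0.40, 0.0023). RHO1 (0.01) and CLN2 (-0.16) did not pass, and 5 and 9 of the 10 fell without eEF1A replicate 3 and 2. Of 6 regulators of that transcription, NRM1, the corepressor of MBF (-0.49, 0.0014), and STB1 (-0.22, 0.0403) fell, and SWI6 (0.10) and MBP1 (0.03), which form MBF, did not pass. STB1 was lost without control replicates 1, 3 or 4, or without eEF1A replicate 2.

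Among 9 genes of G2 and mitosis, 3 fell (33.3%, against 15.6% of all genes). They were KIN3 (-0.32), the mitotic cyclin gene CLB2 (-0.32) and the polo kinase gene CDC5 (-0.28), with BUD4 (-0.0034) and CLB1 (-0.20) not past the test. The count was 1 without eEF1A replicate 3 and 7 without replicate 2, and CLB2 and CDC5 were also lost without control replicates 1 or 3, CLB2 without control replicate 4 too. Of 9 genes of mitotic exit and early G1 (median 0.19), 5 rose (55.6%) and 1 fell (11.1%), against 27.7% and 15.6% of all genes. RME1, a repressor of entry into meiosis (0.81, adjusted p = 0.000319), and DSE1 (0.55, 0.00299), the chitinase gene CTS1 (0.39, 0.00142) and EGT2 (0.24, 0.00968), all used in separating daughter cells, rose most, while ASH1 (0.07) and SIC1 (-0.23) did not pass, although SIC1 fell without control replicate 3 (0.0381) and under both other scalings (0.0448 and 0.0394). The gene that fell was PIR1, of a cell wall protein (-0.18, adjusted p = 0.0402), and its call was lost without control replicate 1, 3 or 4 (0.104, 0.077 and 0.0964) and without eEF1A replicate 3 (0.163). The mating-type markers given above moved with each of these groups, and their part in them cannot be told apart from that of eEF1A.

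**Figure D5:**
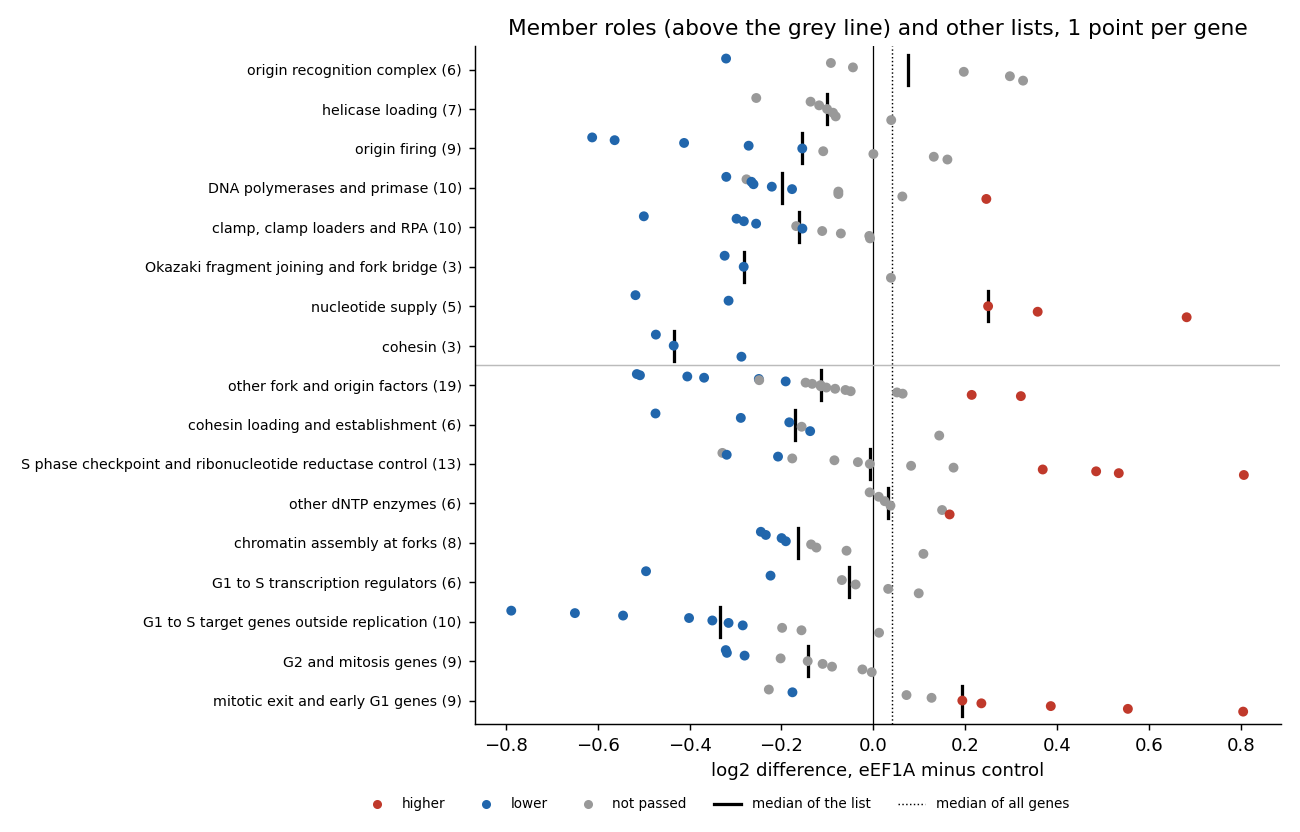
Log2 difference (x axis, 1 point per gene) by role for the 53 genes and by list for genes outside them, with the number of genes in brackets, the median of each list as a bar and the median of all genes as a dotted line. The G1 to S targets have a median of -0.33 and the mitotic exit and early G1 genes one of 0.19. Under both other scalings the bulk of the fork, chromatin and G2 lists shifts further down, as all genes do. There 13 and 11 of 19 fork and origin factors fell, against 26.2% and 25.6% of all genes, whose median moved from 0.04 to -0.0097 and -0.017.

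The count of replication genes that fell depends on how the arrays are put on 1 scale. Of all calls, 64.0% were in the higher direction as deposited, 47.8% after quantile normalisation over the yeast probe sets alone and 48.6% after centring, and in these the genes of the 53 that fell numbered 35 (66.0%, against 26.2% of all genes) and 36 (67.9%, against 25.6%). All 23 that fell as deposited were among them in both. Without eEF1A replicate 3 the counts were 19 lower and 7 higher, against 10.9% and 32.6% of all genes, with 74.9% of all calls in the higher direction, and the median of the 53 moved from -0.14 to -0.04, against 0.09 over all genes. Without eEF1A replicate 2 they were 27 lower (50.9%) and 4 higher, against 21.8% and 20.8% of all genes, with a median of -0.19, against -0.01 over all genes.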

How the data were processed

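RNA abundance was read on 6 arrays (Affymetrix Yeast 2.0), 4 control and 2 eEF1A, grouped by the sample labels. The authors normalised all probe sets of the chip together with RMA (version not given in the sources used here) in affylmGUI and deposited log2 values for 10928 probe sets, of which 5810 are of S. cerevisiae and 5028 of S. pombe. RMA gives the arrays equal distributions, so a shift shared by most yeast genes would be partly removed. Columns of the authors' own comparison (log2 differences, B-statistics, p-values) were not used. An array gives no read depth, and 6 arrays limit the precision.

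From the deposited log2 values, limma 3.58.1 (R 4.3.3; lmFit and eBayes, prior proportion 0.01, group as the only term, 4 residual and 4.09 prior degrees of freedom) was run on the yeast probe sets. Probe sets without a gene name (73, controls and reporters) were left out, 71 name several genes, and the brightest probe set stands for a gene, leaving 5685 genes. The Benjamini-Hochberg adjustment took all of them. Gaps between subunits were compared by an exact permutation test (scipy 1.17.1). The scripts were tested on simulated data. The members, lists and tests were chosen with earlier results of these data known. Values on every array are given for members that passed with a difference of at least 0.3, for the member with the largest difference in each role and for RNR1 to RNR4. Of the other lists, up to 4 genes that passed with the largest difference and up to 2 of the brightest that did not were named. DPB3, ORC5, ORC6, PSF2, PSF3, POL3, MRC1, TOF1, RNH203, RRM3, SML1, RAD24, MEC1, RAD53, DUN1, PIR1 and YNK1 were described further after their values were seen. Alternatives were other scalings, filters, variance models, thresholds and each array left out.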

Additional observations from a re-analysis of the deposited data

Results flagged for a closer look

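In 4 of the 53 genes the highest control array stood apart from the other 3 by Dixon's test at the 95% level, a test that flags about 1 in 20 groups by chance. It was control replicate 3 each time. ORC2 read 9.387 there against 9.303 to 9.315 on the other controls, CDC47 9.544 against 9.413 to 9.431, MCM10 6.745 against 6.581 to 6.6, and POL30 11.88 against 11.85. Control replicate 3 also had the highest median yeast value of the control arrays (9.05). Without it the calls of these 4 genes did not change.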

How the results depend on the processing

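No called difference of the 53 genes changed direction under any alternative. Of the 27 that passed, 21 kept their call with each array left out and 9 under every other scaling, filter, variance model and set of arrays run at an adjusted p under 0.05 (CDC45, SLD2, PSF1, POL30, RNR1, RNR2, RNR3, SMC3 and MCD1). After quantile normalisation over the yeast probe sets, 35 of the 53 genes and 1491 of all genes fell, and the median of the 53 was -0.18. After centring on the yeast median the values were 36, 1453 and -0.20. With a B-statistic above 1.5 as threshold, 3 of the 53 fell (SLD2, PSF1 and RNR1) and 0 rose, against 4 that rose with limma at an adjusted p under 0.05 and 8 that were higher at an unadjusted one, and 144 of all genes fell and 348 rose. Deviations of same-numbered arrays from their group means had correlations of -0.04 and -0.01. Because 2 eEF1A arrays mirror each other around their mean, these values cannot show whether same-numbered arrays share a batch. With replicates 2 and 3 of both groups and the replicate number as a block, 8 of the 53 fell and 2 rose (all genes: 434 and 771), and without the block on the same 4 arrays 9 and 2 (all genes: 459 and 854). Leaving out single arrays gave 4 to 7 genes that rose and a median from -0.19 (without eEF1A replicate 2) to -0.039 (without eEF1A replicate 3), with -0.11 without control replicate 3. With all chip probe sets in the moderation step 20 of the 53 fell (37.7%, against 13.6% of all genes). The count that rose was 6 under limma's trend variance model and also with only probe sets above the S. pombe background. Of all genes, 28.4% and 28.9% rose in these settings. These alternatives show how the calls vary with processing, and the cause of the differences was not tested. Signal was above background for all 53 genes.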
